A study of Caenorhabditis elegans with 8 samples.

Results

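The transcriptome described here is that of wild-type C. elegans embryos of strain N2 at the pretzel stage, the late stage at which the elongated embryo lies folded inside the eggshell. It was measured on 4 arrays and held the genes with at least 1 probe that the scanner software marked as well above background on all 4 of them. These were 16275 of the 19796 genes that could be named, or 82.2%. They rested on the member probes, 33444 of the 43603 probes on the array (76.7%), some of which have no gene name. The study compared aptf-1(gk794) mutant embryos, which carry a mutation in the gene of the AP2 transcription factor APTF-1, with N2 in order to find genes that APTF-1 controls in the sleep-active neuron RIS. The N2 animals were whole hermaphrodite embryos, grown at 21.5°C on plates with E. coli OP50 and picked by hand, with about 3000 embryos in each of 4 biological samples. Each sample pooled whole embryos with all their cell types, so no value belongs to a single embryo or tissue. The same mark was set on all 4 arrays of aptf-1(gk794) embryos for 33779 probes, and on all 8 arrays of the series for 32890 probes. The mutant contrast was not analysed here.

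At the pretzel stage most cells have stopped dividing and the body wall muscles twitch inside the eggshell. The epidermis secretes the first larval cuticle, a layered matrix built largely from small collagens, and the nervous system wires up before hatching. Many sensory receptor families of the worm are expressed in few neurons, and some are used mainly after hatching.

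The arrays had 1 colour, and each held 45220 spots, of which 1417 were controls. The 75th percentile of the signal was 2379, 3626, 3677 and 2694 units on replicates 1 to 4, and no spot was saturated. Replicates 1 and 2 lay on slide 1 of the 2 slides, and replicates 3 and 4 on slide 2. Signals are given below as log2 of the processed signal relative to that 75th percentile, averaged over the detected probes of a gene. A percentile of 100 is the highest mean signal among the 16275 detected genes. Probes differ in how strongly they bind and label, so a rank orders signals and not numbers of mRNA molecules. In the 4705 genes with 2 or more detected probes, the median range between the probes of a gene was 1.19 log2 units. The number of arrays limits the precision.

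The share of probes well above background was 82.4%, 79.3%, 82.4% and 82.5% on replicates 1 to 4. Replicate 2 was the lowest, and of the 1077 probes marked on exactly 3 arrays it alone missed 510, against 200, 75 and 292 for replicates 1, 3 and 4. As a background for the mark, 2, 3, 3 and 4 of the 153 negative-control spots on replicates 1 to 4 were well above background, or 1.31% to 2.61%. The members had a geometric mean signal between 13.9 and 610633 units with a median of 1026. Probes marked on 3 arrays had a median of 19.3 units, and the 5729 probes marked on none had a median of 3.66 units. The highest probe outside the members reached 58.6 units, and 1% of the members lay under 21.3 units, so members and the rest overlapped near the threshold. Among probes with a gene name 82.0% were members, against 57.3% of the 9332 probes that were not matched to a gene. Of the 100 brightest probes, 4 had no gene name.

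The highest signals came mainly from ribosomal proteins and cuticle collagens, with a pair of genes without a common name at the top. The brightest gene was F41F3.3, with 8.0, 7.49, 7.46 and 7.66 log2 units on replicates 1 to 4 and a mean of 7.65 ± 0.25 (SD, n = 4). It was followed by C02E7.6 at 7.67, 7.41, 7.38 and 7.89 log2 units. The third was rps-14, a protein of the small ribosomal subunit, at 7.53, 7.34, 7.20 and 7.64 log2 units. The order of F41F3.3 and C02E7.6 was turned round on replicate 4, while rps-14 lay below both on every array.

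Among the 25 brightest genes, 12 encode cytosolic ribosomal proteins: rps-14, rplp-2.1, rpl-41.2, rps-13, rplp-1, rpsa-1, rpl-21, rps-20, rpl-4, rps-27A, rpl-28 and rps-25. A further 6 belong to the collagens listed by gene name, namely col-117, col-107, col-168, dpy-17, col-36 and col-73. The 7 genes outside these name-based lists were F41F3.3, C02E7.6, ram-2, R12E2.14, Y82E9BR.3, far-1 and asp-1. Y82E9BR.3 encodes the membrane subunit c of the mitochondrial ATP synthase, far-1 a secreted protein that binds fatty acids and retinol, and asp-1 an aspartyl protease of the intestine. The mean signals of the 25 genes ran from 7.65 down to 6.76 log2 units, with SDs of 0.13 to 0.45. The median step between neighbours in the list was 0.011 log2 units and the largest step was 0.21, so most steps were smaller than the SD between arrays. Of the 25 genes, 14 were among the 25 brightest on every array.

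**Figure D1:**
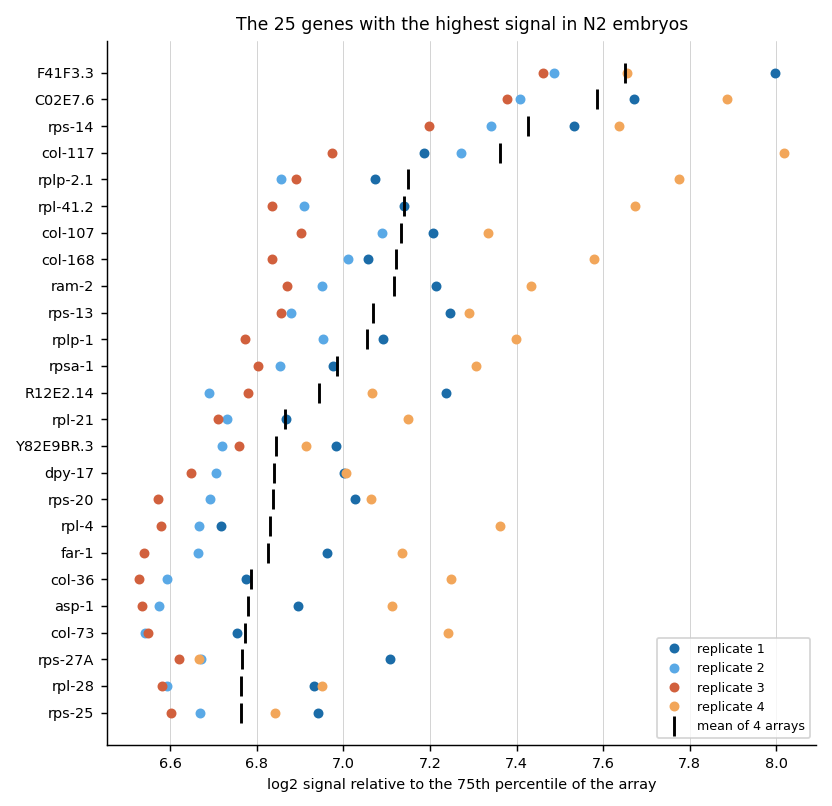
Log2 signal of the 25 genes with the highest mean signal in N2 embryos, above the 75th percentile of its array (x axis), by gene (y axis). Points are the 4 arrays and black bars their means. Replicates 2 and 3 lay below replicates 1 and 4 for 23 of the 25 genes.

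Replicates 2 and 3 both lay below replicates 1 and 4 for 23 of these 25 genes. They were the arrays with the higher 75th percentiles, and the part of array brightness in this order was not tested. Gene by gene the widest spread was that of col-117, with 7.19, 7.27, 6.97 and 8.02 log2 units on replicates 1 to 4. The narrowest was that of Y82E9BR.3, with 6.98, 6.72, 6.76 and 6.91 log2 units. dpy-17 was represented by 11 probes with mean signals from 5.14 to 7.29 log2 units, a wider range than that between arrays, while 14 of the 25 genes rested on 1 detected probe. With the brightest probe of each gene in place of the mean over its probes, 16 of the 25 genes stayed in the list.

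The signal was concentrated in few genes. The 163 brightest genes, 1% of those detected, held 34.3%, 31.6%, 30.8% and 35.7% of the summed gene signal on replicates 1 to 4, with a mean of 33.1% ± 2.3 (SD, n = 4). The brightest 10%, 1628 genes, held 73.0% ± 1.5. The 81 detected ribosomal protein genes held 16.9% ± 1.4 and the 159 detected genes of the 2 collagen lists 7.53% ± 0.29. In contrast the 663 detected chemoreceptor genes together held 0.124% ± 0.004. These are shares of signal in whole embryos, in which fewer cells of a type and less RNA per cell cannot be told apart.

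**Figure D2:**
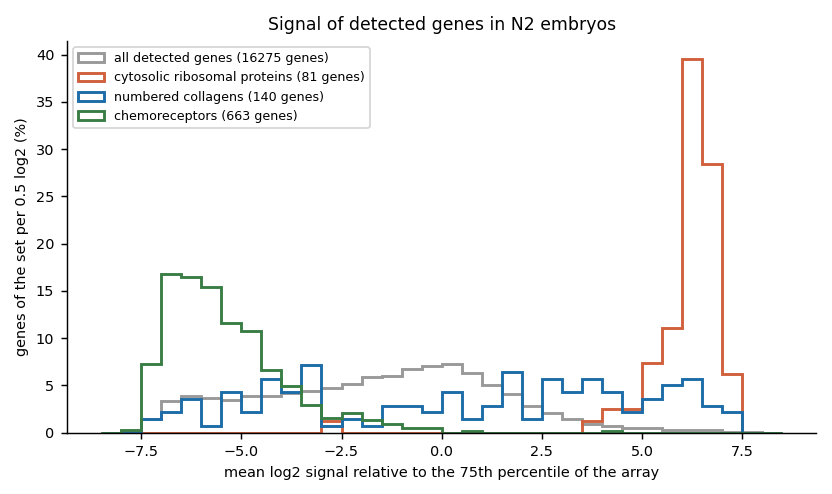
Distribution of mean log2 signal relative to the 75th percentile (x axis, bins of 0.5) as a percentage of each gene set (y axis), for all 16275 detected genes, 81 cytosolic ribosomal proteins, 140 numbered collagens and 663 chemoreceptors in N2 embryos. Ribosomal proteins lay at the high end, chemoreceptors at the low end, and collagens spanned the range.

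Cytosolic ribosomal proteins had the highest median rank of the families counted, and other genes of protein synthesis ranked lower. Of 82 cytosolic ribosomal protein genes, 81 were detected, with a median percentile of 99.6, and 80 of them were in the top 10% of all detected genes. The exceptions were rpl-42, whose probe was not well above background on all 4 arrays, and rpl-24, at percentile 35.4 with -2.20, -2.84, -2.66 and -2.92 log2 units on replicates 1 to 4. Its 6 probes ranged from -4.95 to 6.83 log2 units, so its rank depends on the probe. The next lowest, rps-17, was at percentile 97.5. All 42 translation factors were detected, at a median percentile of 77.7, led by the elongation factor eef-1A.1 at 5.28 ± 0.14 log2 units. All 33 aminoacyl-tRNA synthetases, which charge tRNAs with amino acids, were detected at a lower median percentile of 61.2, with prolyl-tRNA synthetase pars-1 the highest at 2.71 ± 0.10. Mitochondrial ribosomal proteins were detected in 69 of 70 cases at a median percentile of 83.3, led by mrps-11.

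Genes of the respiratory chain, the mitochondrial ATP synthase and the vacuolar proton pump, which uses ATP to acidify organelles, also ranked high. All 9 ATP synthase genes listed by name, 14 cytochrome c oxidase genes, 8 nuclear genes of the NADH dehydrogenase and 21 genes of the vacuolar proton pump were detected, at median percentiles of 97.5, 96.6, 96.0 and 97.1. The highest of each list were atp-2 (5.44 ± 0.23 log2 units), cox-5A (5.56 ± 0.24), gas-1 (3.62 ± 0.14) and vha-2 (5.84 ± 0.14). Y82E9BR.3, the subunit c gene that the name-based list does not hold, was above atp-2 at 6.84 ± 0.13. The lowest of the proton pump genes was vha-7 at percentile 64.6, and the lowest of the NADH dehydrogenase genes was nuo-5 at percentile 38.7. The 4 probes of nuo-5 ranged from -6.06 to 1.59 log2 units, so its rank too depends on the probe.

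Genes of protein quality control were detected almost completely but ranked lower. The proteasome, which degrades proteins tagged with ubiquitin, had 31 of 32 genes detected at a median percentile of 77.0, with none in the top 10%, and pas-2 was its highest at 1.82 ± 0.19 log2 units. Ubiquitin and its conjugating enzymes had 23 of 24 genes detected, led by ubq-2 at 5.67 ± 0.11. All 14 small heat shock proteins and all 9 heat shock proteins of the 70 and 90 kDa classes were detected, at median percentiles of 57.9 and 69.3. They were led by hsp-12.2 and by hsp-1, at percentiles 97.7 and 97.9.

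Actins and troponins stood near the top as well, and myosins and tubulins had median percentiles of 88.1 and 89.3. All 5 actins were detected at a median percentile of 99.2. act-1 had 6.79, 6.55, 6.45 and 6.91 log2 units on replicates 1 to 4, and act-2, the lowest of the actins, was at percentile 96.3. All 8 genes of the troponin complex, which couples calcium to contraction, were in the top 10%. Among them pat-10, a troponin C of body wall muscle, had 6.77, 6.33, 6.48 and 6.64 log2 units, and the troponin I gene tni-1 had 5.62, 5.68, 5.60 and 6.06. Of 22 myosin genes, all detected, 10 were in the top 10%, led by the light chain gene mlc-2 at 5.49 ± 0.57 and the heavy chain gene myo-3 at 5.46 ± 0.08. All 16 tubulins were detected, with the alpha-tubulin of touch receptor neurons, mec-12, the highest at 4.09 ± 0.59. Near-identical actin and tubulin genes can share hybridisation, so single members of these families are uncertain.

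Cuticle genes spanned the whole range of signals. Of 156 numbered collagens, 140 were detected at a median percentile of 85.0, with 60 of them in the top 10% and 31 below percentile 25. col-117, col-107 and col-168 had 7.36 ± 0.45, 7.13 ± 0.18 and 7.12 ± 0.32 log2 units. Of 20 collagens named for body shape, 19 were detected, led by dpy-17 at 6.84 ± 0.19, dpy-14 at 6.61 ± 0.37 and bli-6 at percentile 99.1. The missing one was bli-1, a collagen of the adult cuticle struts. Within this gene family some members were among the brightest genes of the embryo while others were near background.

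Other cuticle components were detected in shares from 82.5% to 100%, beside 82.2% of all genes. Cuticlins, which form the ridges of the cuticle, had 32 of 35 genes detected, and cut-3 had 6.57, 6.30, 6.29 and 7.17 log2 units on replicates 1 to 4. All 13 genes of the lipocalin and zona pellucida type that build the apical matrix before the cuticle were detected, led by lpr-4 at 4.13 ± 0.35. The hedgehog-related proteins, secreted proteins of the epidermis, had 53 of 60 genes detected and 13 in the top 10%, with wrt-1 at 5.94, 5.45, 5.48 and 5.41 log2 units. The patched-related membrane proteins had 23 of 25 detected, led by ptr-4 at percentile 94.1. Astacin proteases had 33 of 40 detected at a median percentile of 40.8, and nas-7 was the highest at 2.58 ± 0.30.

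Families of epithelia and secretion were detected in shares from 75% to 100%, around the 82.2% of all genes, and differed more in rank. Of 58 transthyretin-like genes, which encode small secreted proteins, 50 were detected at a median percentile of 87.4, and ttr-16 had 6.37, 6.28, 6.16 and 6.37 log2 units. All 25 gap junction innexins were detected, led by inx-13 at 4.05 ± 0.35, and 10 of 11 aquaporin water channels, led by aqp-2 at 5.51 ± 0.19. Claudin-like genes were detected in 23 of 27 cases, led by clc-1 at percentile 91.7. Of 28 cathepsin and aspartyl proteases, 22 were detected at a median percentile of 87.5, with asp-1 at 6.78 ± 0.27. Lipases were detected in 6 of 8 cases, and the highest was lipl-2 at percentile 80.6.

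**Figure D3:**
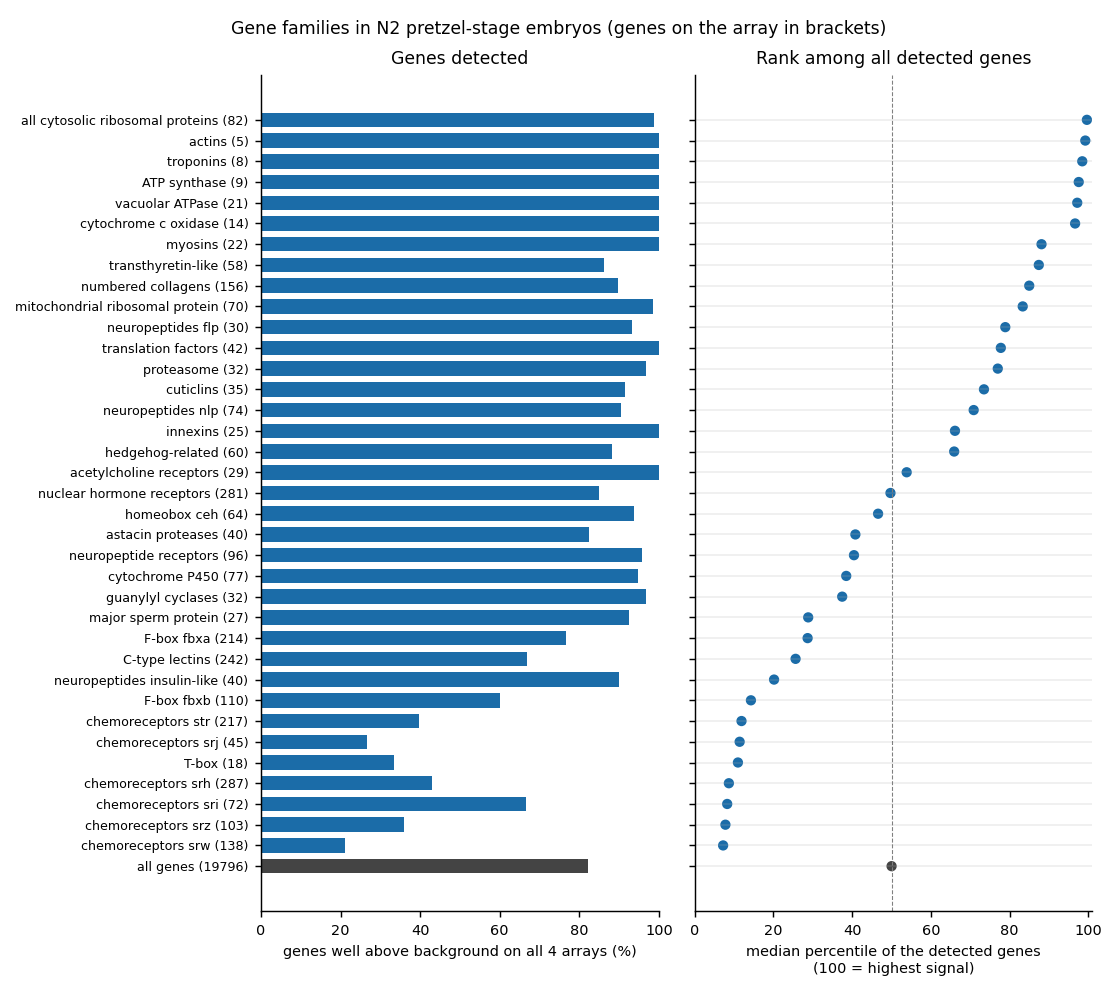
Share of genes well above background on all 4 N2 arrays (left, %) and median percentile rank of the detected genes (right, 100 = highest signal) for selected families, with the number of genes on the array in brackets. The dark bar and point are all 19796 genes, of which 82.2% were detected, and families run from cytosolic ribosomal proteins down to the srw chemoreceptors.

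Families of neuronal signalling were detected in shares from 84.6% to 100%, beside 82.2% of all genes. The flp and nlp precursors lay above the middle of the range, insulin-like peptides low and receptors between them. Of 30 flp genes, which encode FMRFamide-like neuropeptides, 28 were detected at a median percentile of 78.9. The highest was flp-1, with 2.87, 3.07, 3.14 and 3.15 log2 units on replicates 1 to 4. The next was flp-11, the sleep neuropeptide gene of RIS, with 2.10, 2.30, 2.27 and 2.68 log2 units over 6 of its 8 probes, at percentile 92.2. On all 4 arrays flp-1 lay above flp-11, and replicate 4 was the highest for both.

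Of 74 nlp genes, 67 were detected at a median percentile of 70.9. The highest, nlp-24, nlp-33 and nlp-29, are known as antimicrobial peptides of the epidermis, and they had 6.05 ± 0.30, 4.90 ± 0.60 and 4.36 ± 0.20 log2 units. Insulin-like peptides were detected in 36 of 40 cases but at a low median percentile of 20.2, with none in the top 10%, and ins-1 had 0.92, 0.82, 0.93 and 0.96 log2 units. Receptors and channels had lower median ranks than the flp precursors: 92 of 96 neuropeptide receptors were detected at a median percentile of 40.5, led by dmsr-1. All 29 acetylcholine receptor genes were detected at a median percentile of 53.8, led by lev-1 at 3.08 ± 0.12, and 51 of 56 other ligand-gated channels of the lgc group, led by lgc-22 at 5.02 ± 0.19. Of 45 genes of the two-pore potassium channel group, 43 were detected, led by twk-18, and of 25 sodium channel genes of the DEG/ENaC type 23, led by del-3. The 32 guanylyl cyclases, many of them in sensory neurons, had 31 genes detected at a median percentile of 37.5, with gcy-36 at percentile 74.8. Immunoglobulin-domain zig genes were detected in 11 of 13 cases, with zig-12 at 3.60 ± 0.14.

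The genes at the centre of the study were all detected in N2 embryos. aptf-1 itself had 0.76, 0.26, 0.66 and 0.43 log2 units from its only probe, at percentile 75.2. unc-25, which makes the transmitter GABA, stood at percentile 96.0, and the GABA vesicle transporter unc-47 at 84.3. The transcription factor lim-6 was at percentile 34.7 with -2.82, -2.71, -2.67 and -2.69 log2 units.

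Chemoreceptor genes were the largest group left near or below background. These receptors, of the seven-transmembrane class, let sensory neurons detect odours and tastes. Of 1570 such genes, 663 were well above background on all 4 arrays, or 42.2%, beside 82.2% of all genes. On single arrays 811, 726, 830 and 892 of them were detected on replicates 1 to 4. Those detected had a median percentile of 10.73. The share detected varied between families, from 29 of 138 srw genes (21.01%) and 12 of 45 srj genes (26.7%) over 37 of 103 srz (35.9%), 86 of 217 str (39.6%) and 123 of 287 srh (42.9%) to 40 of 71 srd (56.3%), 48 of 72 sri (66.7%), 38 of 56 sre (67.9%) and 7 of 10 srr (70%). Smaller families were also counted in groups: 84 of 139 genes of the sra, srab, srb and sre families, 154 of 366 of the srg, srt, sru, srv, srx and srxa families, and 50 of 132 of the srbc, srsx and srr families were detected. Under the milder mark of a signal positive and significant against background the share was 65.1%. A gene not well above background at this depth of signal is not shown to be absent.

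A few chemoreceptors stood out from this pattern. Only 10 of the 663 lay above the middle of all detected genes. srr-4 had 3.90, 4.16, 3.81 and 4.55 log2 units on replicates 1 to 4, at percentile 97.7, and was the only one in the top 10%. srv-1 followed with 0.50, 0.77, 0.66 and 0.86 log2 units at percentile 77.7. The others were srr-1, srw-86, srh-237, srd-32, srb-16, sre-23, srx-45 and srr-6, at percentiles from 63.8 down to 50.2. Of the 10 genes, srh-237, sre-23 and srx-45 rested on 2 probes and the others on 1 probe. The highest genes of the remaining families were dim: str-173 was at percentile 46.9, sri-48 at 41.2, srz-97 at 28.6 and srj-14 at 21.9.

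Transcription factor families differed widely, with shares detected from 33.3% (T-box) to 93.8% (ceh homeobox) beside 82.2% of all genes. Nuclear hormone receptors, at 85.1%, were near the share of all genes. Of 64 ceh homeobox genes, 60 were detected at a median percentile of 46.6, led by ceh-20, a homeodomain cofactor of Hox proteins, at 2.97 ± 0.27 log2 units. Of 281 nuclear hormone receptors, a family greatly expanded in nematodes, 239 were detected at a median percentile of 49.7. The highest of them, nhr-3, had 4.80, 4.57, 4.55 and 4.76 log2 units, at percentile 98.4. GATA factors were detected in 10 of 11 cases, led by the epidermal factor elt-3 at percentile 87.2. end-1, which specifies the endoderm in the early embryo, was the missing one, although it was detected on replicates 1 and 3. In the same list med-2 was detected on all 4 arrays, at percentile 33.0. Basic helix-loop-helix factors were detected in 17 of 23 cases, and the muscle factor hlh-1 had 1.56, 1.55, 1.501 and 1.57 log2 units, at percentile 86.7.

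T-box factors, many of which act in early embryos, were at the other end. Only 6 of 18 were detected, or 10 (55.6%) when 3 of 4 arrays sufficed, at a median percentile of 10.99. tbx-2, which acts in pharynx development, was far above the others at 0.72, 0.68, 0.55 and 0.25 log2 units and percentile 75.7. The next, tbx-43, was at percentile 32.3 from 1 of its 2 probes. Its values were uneven, with -4.38, -3.56, -3.05 and -0.93 log2 units on replicates 1 to 4. After it came tbx-8 at percentile 11.3.

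Histones ranked high and cell cycle genes in the middle, and both were detected in larger shares than the 82.2% of all genes. Of 47 histone genes, 46 were detected at a median percentile of 79.5, with 16 in the top 10%, and the replacement histone H3.3 gene his-72 was the highest at 5.09 ± 0.27. Histone genes are close copies, so their single values are uncertain. All 24 genes of the name-based list of cyclins and kinases were detected at a median percentile of 41.6, led by cdk-11.1. A place in this list does not show a role in the cell cycle. In it cdk-1 and cyb-1 were at percentiles 58.5 and 57.3. The group of cdc and mcm genes was detected in 32 of 33 cases at a median percentile of 43.1, and its highest member was cdc-42, a small GTPase of cell polarity and not a replication factor.

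Large families of fast-changing genes were dim. Of the F-box genes, which tag proteins for degradation, 164 of 214 fbxa (76.6%), 66 of 110 fbxb (60%) and 42 of 51 fbxc genes (82.4%) were detected. The share of all genes was 82.2%, so fbxc lay at that share. The median percentiles of the 3 families were 28.7, 14.3 and 22.7. The highest were fbxa-24, fbxb-88 and fbxc-5, at percentiles 82.6, 70.6 and 79.9. Of 111 BTB and MATH domain genes 80 were detected, with math-41 at percentile 96.8. C-type lectins, many of them defence genes, were detected in 162 of 242 cases, with 80 below percentile 25 but 11 in the top 10%, led by clec-65 at 3.54 ± 0.15.

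Enzymes of detoxification were detected more completely, in shares from 93.0% to 97.0% beside 82.2% of all genes. Of 77 cytochrome P450 genes 73 were detected, and cyp-35C1 had 5.54, 4.76, 3.78 and 4.62 log2 units on replicates 1 to 4. Of 67 glucuronosyl transferases 65 were detected, led by ugt-46 at 4.01 ± 0.36, and of 43 glutathione transferases 40, led by gst-27 at 3.43 ± 0.14. Antimicrobial and related secreted peptides were detected in 80 of 91 cases, with 23 in the top 10% and fipr-7 at 5.43 ± 0.12. Small nematode-specific secreted peptides were detected in 39 of 40 cases, led by nspb-12.

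Among all gene name stems with 10 or more genes, 178 in number, 16 had fewer genes detected than not detected, or 8.99%. Of these 16, 12 were chemoreceptor stems. The other chemoreceptor stems, srv, srab, srd, sra, srsx, sri, sre and srr, had more genes detected than not. Their shares ran from 54.5% (srv) to 70% (srr), below the 82.2% of all genes. The 10 lowest were srw, srbc, srj, tbx, srz, srx, ssp, str, srt and srxa, from 21.01% to 42.1%, where ssp genes encode small sperm proteins. Every gene was detected in 66 stems, of which the largest were mrpl (41 genes), vps and glb (33 each), slc (32), rps (30), dnj and dhs (29 each), egl (27), and eif and dpy (25 each). These are genes of mitochondrial ribosomes, membrane traffic, globins, solute carriers, ribosomes, chaperones, dehydrogenases, egg laying, translation initiation and body shape.

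Every marker of the differentiated tissues that was named on the array was detected, beside 82.2% of all genes. All markers of oocytes and meiosis, given below, were detected too, so detection alone does not set these tissues apart. The genes unc-17 and cha-1, 2 of the 3 acetylcholine neuron markers, were not matched to a probe and not analysed here. All 6 body wall muscle genes, 6 pharynx genes, 10 genes of all neurons, 4 genes of GABA neurons, 7 of amine neurons, 8 of the epidermis and 8 of the intestine were detected, with median percentiles of 91.0, 90.6, 89.1, 89.4, 55.2, 75.3 and 95.0. The highest of each list were myo-3, the pharyngeal troponin gene tni-4, synaptobrevin snb-1, unc-25, the amine decarboxylase gene bas-1, the collagen gene sqt-3 and asp-1. The low members of the muscle and neuron lists were unc-89 and unc-64, at percentiles 30.2 and 29.6. The 15 probes of unc-89 ranged from -4.98 to 1.48 log2 units and the 7 probes of unc-64 from -5.01 to 1.86, so the rank of these genes depends on the probe. The choline transporter cho-1, the glutamate transporter eat-4 and the 3 genes of the excretory system and glands were also detected, at percentiles 49.0 and 51.4 for cho-1 and eat-4. In the excretory and gland list vha-5 was at percentile 92.1 and clh-3 at 12.1, and in the amine list tph-1, which makes serotonin, was at 36.5.

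Lists of germ line, oocyte, meiosis and sperm genes had lower medians than the tissue lists, although single tissue markers were as low. Oocyte and eggshell genes were detected in 11 of 11 cases at a median percentile of 34.2, with the yolk receptor rme-2 the highest at percentile 56.4, and meiosis genes in 6 of 6 cases at 32.5, led by him-3. In the germ line list 4 of 6 genes were detected, led by mes-2, while glh-1 and nos-2 were not detected on all 4 arrays. In the sperm list 4 of 7 were detected, led by gsp-4, and spe-11, fer-1 and ssp-16 were not. In broader families, 15 of 27 small sperm-specific proteins were detected (55.6%, beside 82.2% of all genes), led by ssq-2 at percentile 53.9. Germ granule genes were detected in 11 of 13 cases (84.6%, near the share of all genes), led by glh-4 at percentile 51.5. Argonaute and RNA interference genes were detected in 33 of 35 cases. They were led by nrde-2, which is an RNA interference factor without an Argonaute domain. All 24 genes of the synaptonemal complex and him group were detected at a median percentile of 33.4, and its highest, him-4, encodes the extracellular protein hemicentin and not a meiotic protein.

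Major sperm proteins, whose genes are near-identical copies, were detected in 25 of 27 cases (92.6%, beside 82.2% of all genes) at a median percentile of 28.8. The highest, msp-79, had -1.92, -2.34, -2.85 and -2.30 log2 units. Vitellogenins, the yolk proteins made by the adult intestine, were detected in 4 of 5 cases. vit-1 had -1.56, -1.73, -1.31 and -1.60 log2 units, vit-6 was at percentile 1.49, and vit-2 was not detected on all 4 arrays.

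Of the adult cuticle markers, col-19 had -7.14, -7.37, -7.25 and -6.89 log2 units and bli-2 had -7.29, -6.52, -6.92 and -6.48, at percentiles 0.87 and 2.63, and bli-1 was not detected. Of the male genes lov-1 was not detected and pkd-2 was at percentile 9.12. In the list of sheath and spermatheca genes fkh-6 and sth-1 were not detected and lim-7 was at percentile 55.5.

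**Figure D4:**
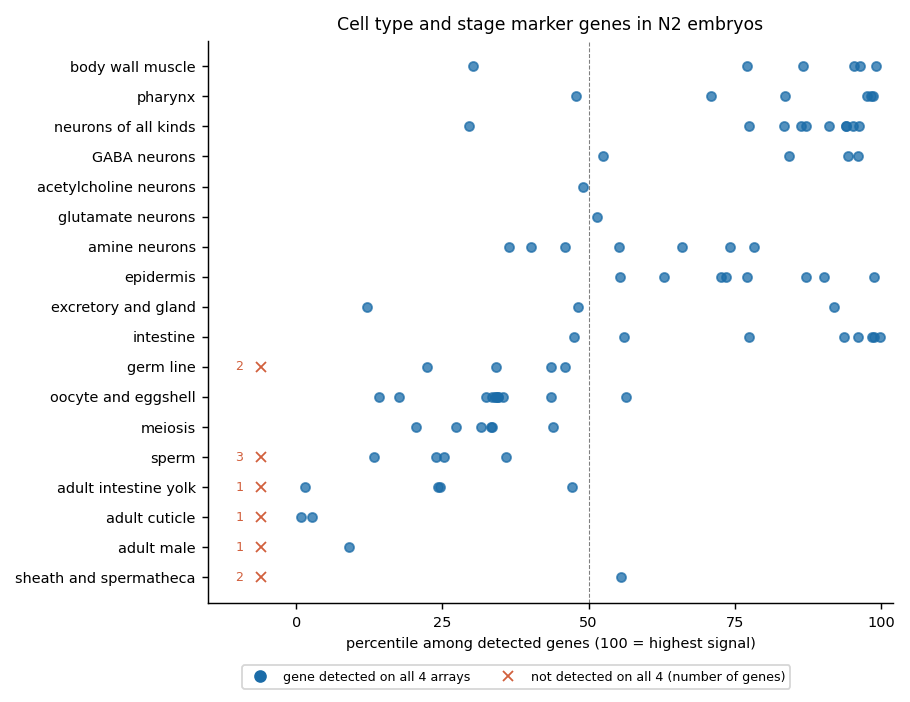
Percentile among detected genes (x axis, 100 = highest signal) of each marker gene, by list (y axis), in N2 embryos. Points are genes detected on all 4 arrays; crosses with a number count those that were not, 10 genes in all, and adult cuticle markers lay at percentiles 0.87 and 2.63.

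The 4 replicates correlated closely, but the wide range of signals keeps such correlations high. Between pairs of arrays, Pearson's r over the member probes was between 0.973 (replicates 1 and 4) and 0.994 (replicates 2 and 3). Probes are not independent replicates. More than 2-fold differences were found in 14.5% of member probes between replicates 1 and 4, and in 1.65% between replicates 2 and 3. The median SD per probe was 0.23 log2 units, and 1.73% of probes, 579 in number, had an SD over 1. Spread depended on signal: the median SD was 0.39 in the dimmest 10% of probes and 0.20 in the brightest 10%, with a minimum of 0.18 between them. Of the deviations from the probe means, 72.1% of the variance lay on 1 axis with replicate 1 at one end and replicate 4 at the other, with weights of 0.67, -0.13, 0.17 and -0.71 for replicates 1 to 4. These ends were on different slides, and the axis does not separate the slides.

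Families differed in spread. The lowest median SDs were those of nuclear NADH dehydrogenase genes (0.14), lgc channels (0.14) and guanylyl cyclases (0.14). The highest were those of fbxb F-box genes (0.56), T-box factors (0.44, from 6 member probes) and major sperm proteins (0.38). These last families were also dim, at median percentiles of 14.3, 10.99 and 28.8, and dim probes had a wider spread in general. The 74 member probes of fbxb genes had median deviations of 0.14, -0.34, 0.64 and -0.40 log2 units on replicates 1 to 4, so replicate 3 was high and replicates 2 and 4 were low. The 39 member probes of msp genes had median deviations of 0.41, 0.09, -0.49 and 0.04, with replicate 1 high and replicate 3 low. The 52 member probes of vacuolar proton pump genes had -0.18, 0.01, -0.11 and 0.32, with replicate 4 high. Probes of a family share sequence and samples, so they are not replicates.

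Among genes with 2 or more detected probes, 23 of 4705 had an SD over 1. The collagen gene col-41 varied most, with -5.02, -2.01, -6.59 and -0.73 log2 units on replicates 1 to 4, and the same gene had -3.76, 1.10, 1.69 and -6.60 on the 4 arrays of aptf-1 mutant embryos. C03B8.5 followed with -2.10, -5.42, -3.82 and -7.24 log2 units, and the Skp1-related gene skr-15 with -5.59, -7.11, -2.53 and -5.92. These 3 genes put the arrays in different orders.

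The ribosomal RNA gene rrn-2.1 had 3.31, 0.80, 0.53 and -1.13 log2 units, and 2 other ribosomal RNA genes, rrn-1.1 and rrn-3.1, also had replicate 1 highest and replicate 4 lowest. The collagen gene dpy-9 had -2.67, -3.12, -5.10 and -6.17 log2 units. Chosen after their values were seen, 4 other collagen genes, col-17, col-90, dpy-13 and rol-6, put the 4 N2 arrays in the same order as col-41, lowest on replicate 3 and highest on replicate 4. dpy-13, for example, had -0.30, 0.89, -0.75 and 1.54 log2 units. The order was not particular to these genes, and col-117 had it too. Of the 25 brightest genes, 21 were lowest on replicate 3 and 20 were highest on replicate 4. Their full order mostly differed from that of col-41. For 23 of the 25, replicate 2 lay below replicate 1, while col-41 had replicate 2 above replicate 1. The share of all collagens or of all genes with this order was not counted. Related collagens can share hybridisation, and the part of this was not tested.

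The most even genes were K05C4.2, T28F3.9, F26G1.2, prps-1 and cdc-14, with SDs of 0.0084 to 0.013 log2 units. K05C4.2 had 3.15, 3.16, 3.15 and 3.17 log2 units over 7 probes. prps-1, an enzyme of nucleotide precursor synthesis, had 0.72, 0.74, 0.73 and 0.74 over 5 probes, and cdc-14, a cell cycle phosphatase, had -0.11, -0.13, -0.12 and -0.10 over 9 probes. The SDs of these 5 genes on the aptf-1 arrays, which did not serve to choose them, were 0.058, 0.14, 0.12, 0.11 and 0.039.

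**Figure D5:**
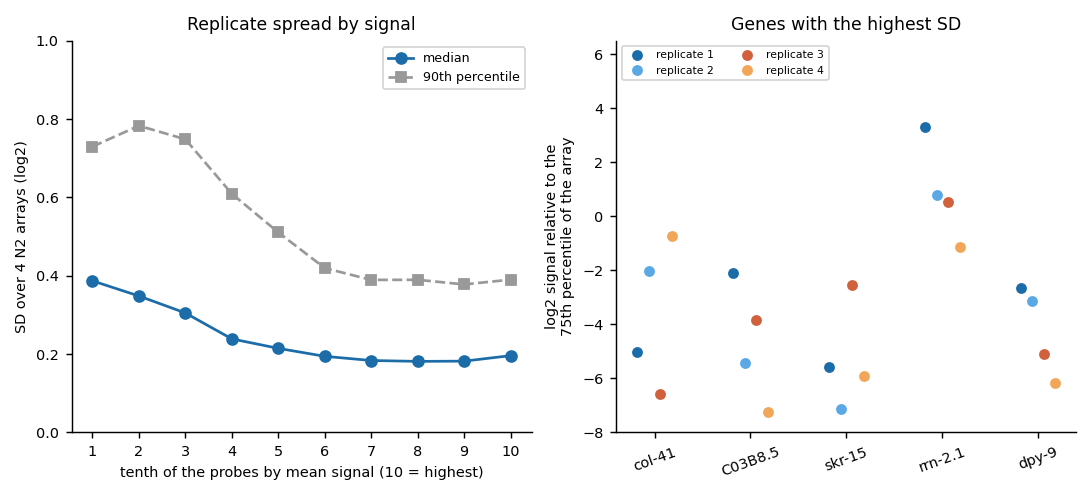
Left, median and 90th percentile of the SD over 4 N2 arrays (y axis, log2) for member probes in 10 bins ordered by mean signal (x axis); the median was 0.39 in the dimmest bin and lowest, 0.18, in the eighth. Right, log2 signal on each of the 4 arrays for the 5 genes with the highest SD.

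Whether the slide set the spread was asked with limma, as slide 2 minus slide 1 with 2 arrays on each. Of the 33444 member probes, 0 (0%) passed both the adjusted p threshold of 0.05 and the threshold of 1.5 on the fold, while 481 (1.44%) had an unadjusted p under 0.05, where uniform p-values would give 5%. The lowest limma p after Benjamini-Hochberg adjustment was 0.964. These values rested on single arrays: the unadjusted count was 202, 2346, 2491 and 562 without replicates 1, 2, 3 and 4, and the lowest limma adjusted p was 0.0701 without replicate 4, with 0 calls each time. With a trended and robust limma fit the call count was also 0, with 395 probes at an unadjusted p under 0.05. The probe with the lowest p, named after its value was seen, was that of dpy-8, a cuticle collagen, with -3.49 and -4.06 log2 units on slide 2 and 0.0014 and -0.081 on slide 1. Its difference was -3.73 (standard error 0.26, limma adjusted p = 0.964). With 2 arrays on each slide even a difference of this size was not called. The 0 calls therefore cannot show whether the slide set the spread. On the aptf-1 arrays dpy-8 had 0.29 and -3.79 log2 units on slide 2 and -3.07 and -3.34 on slide 1, so the slides overlapped there.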

How the data were processed

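RNA of pretzel-stage embryos was hybridised in 1 colour, with 1 sample per array. The deposited array files, written by Feature Extraction 10.7.3.1 (Agilent), give each spot a processed intensity corrected for background, its median spot and background intensities, and marks for outliers and for signals above background. A log2 table deposited beside them, with normalization not given in the sources used here, served as an alternative. The growth temperature is that of the sample records; the methods give another value.

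Control spots and outlier spots (62 to 188 per N2 array) were left out. Log2 processed intensities were scaled to the 75th percentile within each array, and replicate spots of a probe were averaged. A probe was a member if well above background on all 4 N2 arrays; 328 probes without a value on an array were not. Probe names were matched to a table of the WBcel235 assembly, 30936 by sequence name and 3335 by accession. A gene's value is the mean over its detected probes. Named genes were the 25 brightest, the highest of each of 74 families and of each marker list, and the 5 with the highest and the lowest SD. Members and lists were chosen with earlier results of these data known. Slides were compared with limma 3.58.1 in R 4.3.3. The fit was also run on simulated data in which probes varied independently, without the shared axis of the real arrays. That run cannot show how the fit behaves on the real arrays, and nothing is concluded from it. Tables were made with Python 3.11.15 and pandas 2.3.3. A planned search of promoter motifs was not run. Alternatives were other detection rules, scalings, background corrections, the brightest probe of a gene and each array left out.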

Additional observations from a re-analysis of the deposited data

Results flagged for a closer look

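Values of 4 arrays were compared for 125 measures named in the report or chosen by its rules. In 8 of them, or 6.4%, 1 array lay far from the other 3 by the gap relative to the whole range. Chance gives about 5% for independent measures. These measures share the same 4 arrays and are not independent, so the 6.4% cannot be weighed against that rate. The share of probes well above background was 79.3% on replicate 2, against 82.4% to 82.5% on the others. On replicate 4, inx-13 had 4.58 log2 units against 3.85 to 3.91 on the others, mec-12 had 4.97 against 3.71 to 3.85, and pas-2 had 2.09 against 1.69 to 1.75. On the same array pars-1 had 2.56 log2 units against 2.75 to 2.77 on the others, and sqt-3 had 4.90 against 5.29 to 5.32. On replicate 1, rps-27A had 7.11 log2 units against 6.62 to 6.67 on the others, and wrt-1 had 5.94 against 5.41 to 5.48. Of the 8, 5 were set apart by replicate 4, but measures of the same array are not separate observations of it.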

How the results depend on the processing

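The number of detected probes lay between 33533 and 33973 with 1 array left out, and was 34755 with 3 of 4 arrays, 37868 with 1 of 4 and 37672 with the milder mark of a signal positive and significant against background. Detected genes lay between 15864 and 17800 over all alternatives, and the signal share of the brightest 1% between 32.3% and 33.8%. The median SD per probe was 0.19 without replicate 1 or without replicate 4, and 0.26 with all probes. The slide comparison gave 0 calls under every alternative except normexp background correction with an offset of 50, which gave 1 call, lower on slide 2 than on slide 1. With the milder mark 65.1% of chemoreceptors were detected, and with 3 of 4 arrays 55.6% of T-box factors were. The median percentile of a family shifted by up to 12.8 with the brightest probe of each gene and by up to 4.97 with an array left out. The cause of these shifts was not tested. No paired analysis was possible because the slides compared share no replicate number. Normexp was run on median spot signals. Members and other probes overlapped between 13.9 and 58.6 units, which limits what can be said of undetected families.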
